A study of Mus musculus with 6 samples.

Results

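Ligand-gated neurotransmitter receptor channels were examined in tumours of the human neuroblastoma cell line SK-N-BE(2), in which MYCN is amplified. The genes were chosen by symbol alone: subunits of the nicotinic acetylcholine, GABA-A, glycine, ionotropic glutamate, P2X and 5-HT3 receptors, among probe sets of the array that carry exactly 1 gene symbol, with the brightest probe set kept for each gene. This gave 63 of 18417 named genes: 15 nicotinic, 15 GABA-A, 5 glycine, 17 glutamate, 6 P2X and 5 5-HT3 subunit genes. Each of the 63 was read by 1 such probe set. P2RX5 was only on a probe set with several symbols, and CHRNA7 and GABRE were each also on a shared one. These shared probe sets are given separately.

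The cells had been injected into the adrenal gland of NSG mice, which lack T, B and natural killer cells but keep myeloid and stromal cells of their own. Treated mice received BL-8040, which blocks the chemokine receptor CXCR4, at 400 µg under the skin on 14 consecutive days from day 7 after injection. There were 3 treated and 3 control mice, with 1 human array for each tumour, and all 6 tumours came from the same cell line. The sources used here do not say what the control mice received, nor the sex and age of the animals. Mouse RNA adds to the signal where it can bind these human probes, and its share was not measured.

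These channels open when a transmitter binds and turn a chemical signal into an ion current within milliseconds. Nicotinic, 5-HT3, glutamate and P2X receptors pass cations and usually excite a cell, while GABA-A and glycine receptors pass chloride. Nicotinic, 5-HT3, GABA-A and glycine receptors belong to the Cys-loop family of pentamers, and glutamate and P2X receptors have folds of their own. Sympathetic neurons, the lineage from which neuroblastoma arises, receive their input from the spinal cord through ganglionic nicotinic receptors, whose principal subunits are encoded by the neighbouring genes CHRNA3, CHRNA5 and CHRNB4.

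Array medians lay between 5.35 and 5.42 on the log2 scale, and the correlation between arrays over all genes ranged from 0.992 to 0.997. BL-8040 replicate 3 stood apart on the first principal component, at -22.7 against -0.743 to 10.1 in the other 5 arrays, so many of the differences below are also given with that array left out. The labelled cell type was checked with sympathetic neuroblast markers: 10 of 10 measured genes had a mean signal at or above the median of all named genes, with a median at percentile 90.6. Skeletal muscle markers, included because muscle has nicotinic receptors too, had a median at percentile 35.6 and a range from 13.5 to 73.7. Of these 12 genes, 3 reached the median signal of all named genes, and the defining factor MYOD1 lay at percentile 25.2. Fibroblast markers had a median at percentile 94.5, endothelial markers at 28.3, myeloid markers at 30.3, Schwann and glial markers at 29.6 and adrenal cortex markers at 24.6. A percentile ranks probe set signals on the array and depends on the probes as well as on the transcript, so it does not order transcript amounts between genes.

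Most of the receptor genes were dim. The median member lay at signal percentile 24.3, and 11 of 63 members reached the median signal of all named genes, 6.04 on the log2 scale. These 11 were the nicotinic genes CHRNA3, CHRNA5, CHRNB4 and CHRNB2, the glutamate receptor genes GRIK2, GRID1 and GRIN3B, the purine receptor genes P2RX7 and P2RX4, the GABA-A gene GABRG3 and the serotonin receptor gene HTR3A. By family the median signal percentile was 31.3 for nicotinic, 29.5 for glutamate, 38.0 for P2X, 19.2 for 5-HT3, 16.5 for GABA-A and 4.44 for glycine receptor genes. No detection call was available, so a dim probe set is described by its rank and is not called absent.

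**Figure D1:**
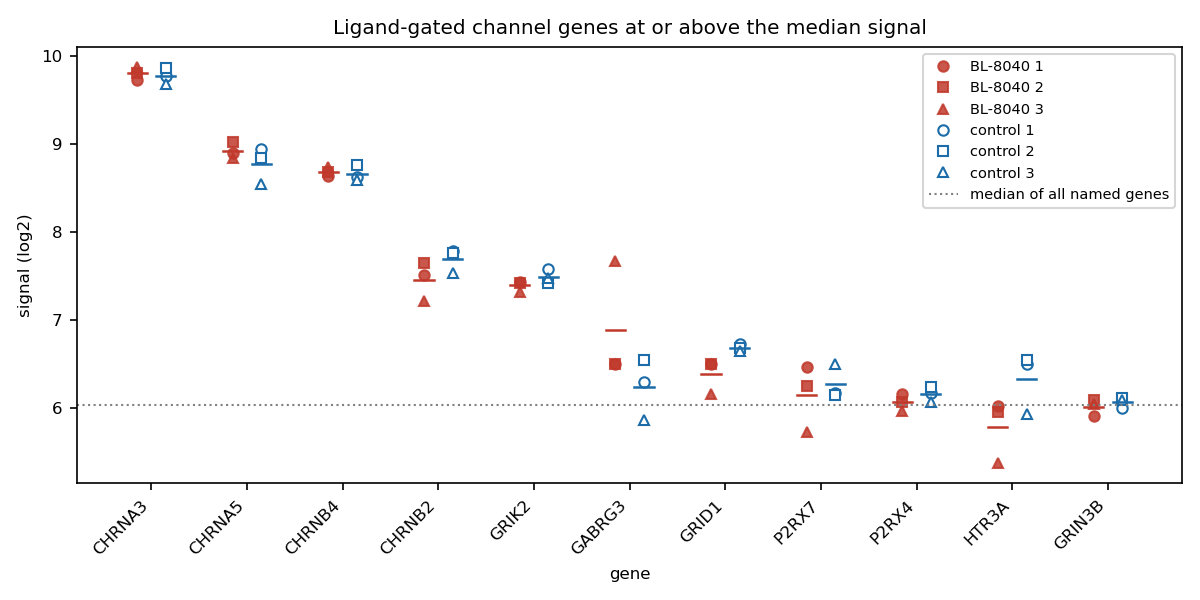
Signal (log2, vertical axis) of the 11 receptor genes at or above the median signal, with 1 point per array, BL-8040 in filled red and control in open blue symbols, short lines for group means and a dotted line for the median of all named genes. CHRNA3, CHRNA5 and CHRNB4 sit at the top with groups that overlap, and BL-8040 replicate 3 (filled triangle) is the highest point of GABRG3 and the lowest of HTR3A, GRID1, CHRNB2 and P2RX7.

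The comparison asked which of these channel transcripts differed in tumours after CXCR4 inhibition. The ganglionic nicotinic genes CHRNA3, CHRNA5 and CHRNB4, whose probe sets were the brightest of all members, did not pass the test and had overlapping groups. The members with the smallest p stood lower after BL-8040: the serotonin channel gene HTR3A, the glutamate receptor genes GRIK3, GRIK5 and GRID1, the glycine receptor gene GLRA4 and the muscle-type nicotinic gene CHRNB1. In limma, 0 of 63 members had a Benjamini-Hochberg adjusted p under 0.05, as did 0 of all 18417 named genes (0%), and the smallest adjusted p of a member was 0.644. At an unadjusted limma p under 0.05 there were 6 members, or 9.52%, against 7.72% of all named genes. All 6 stood lower (background 5.08%) and 0 stood higher (background 2.64%). The share depends on signal: of the 9208 named genes below the median signal, 664 were lower at this p and 225 higher. Among members below it, 4 of 52 were lower (7.69%). Among the brighter members, 2 of 11 were lower (18.2%), beside 2.94% of all named genes at that signal. Without BL-8040 replicate 2 the count of members at this p was 10, of which 2 were higher, beside 8.06% of all named genes. Without control replicate 2 it was 4, of which 3 were lower, beside 4.91%. With each array centred on its median, 1 of the 6 was higher: GABRG3, at an unadjusted p of 0.0410.

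The 3 treated values lay wholly below the 3 controls in 7 members, or 11.1%, against 9.05% of all named genes, and wholly above in 0, against 4.93%. Both directions together gave 11.1% of members and 14% of all genes. The 7 were CHRNB1, GRIK3, GRIK4, GRIK5, GRID1, GLRA4 and GABRD. The median difference over the 63 members was -0.07 (BL-8040 minus control, log2), beside -0.02 over all named genes, and 43 members (68.3%) were lower, beside 58.5% of all genes. Dim genes as a whole leaned the same way: among the 9208 named genes below the median signal, 62.9% were lower, with a median of -0.04. Among the members, the median was -0.07 in the 52 dim genes and -0.10 in the 11 brighter ones, where all genes at that signal had a median of -0.01. Without BL-8040 replicate 3 these medians were -0.07 in the dim members, -0.05 in the brighter ones and 0.01 in all genes at that signal. These shares and medians describe the members and are not a test of them.

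**Figure D2:**
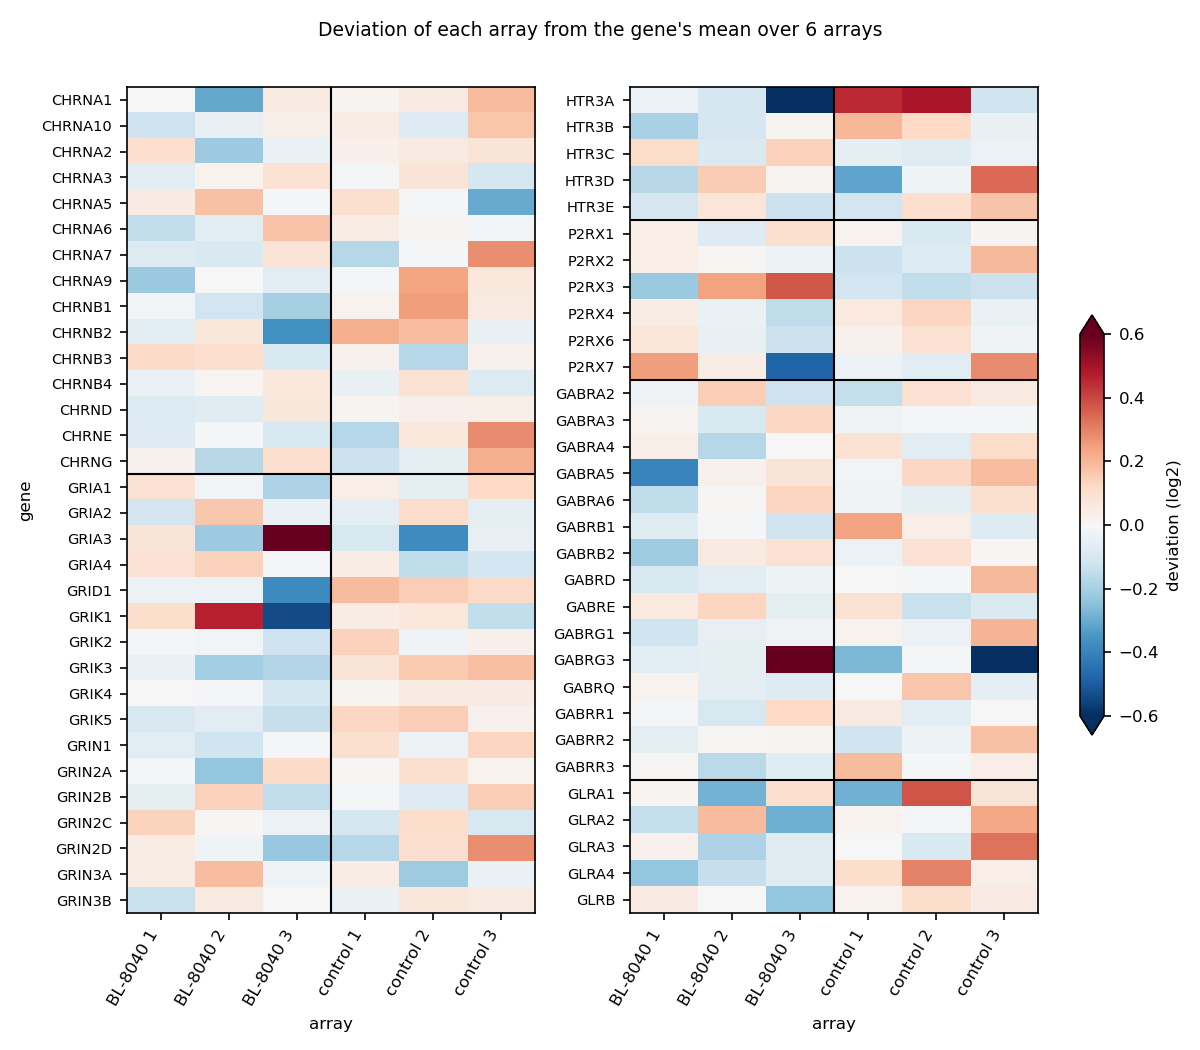
Deviation of each array (columns) from the gene's mean over the 6 arrays, in log2 units from blue (lower) to red (higher), for the 63 receptor genes in rows, grouped by family, with a vertical line between the BL-8040 and control arrays. Several of the strongest colours belong to 1 array, BL-8040 replicate 3, as in HTR3A, GRIA3, GRIK1, GABRG3 and P2RX7.

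CHRNA3 encodes the alpha3 subunit that binds acetylcholine in ganglionic receptors. Replicates 1 to 3 measured 9.73, 9.82 and 9.88 after BL-8040 against 9.78, 9.87 and 9.69 without it, and values below follow the same order. The groups overlapped, with means of 9.81 ± 0.08 and 9.78 ± 0.09 (log2, SD, n = 3 each). The difference was 0.03 with a 95% interval from -0.15 to 0.21 (limma adjusted p = 0.931), and it was just below 0 after quantile normalization, with array weights, and without BL-8040 replicate 3 or control replicate 3. The interval thus left out a change as large as 1.5-fold in either direction, which is 0.58 on the log2 scale.

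CHRNB4 encodes the beta4 subunit that pairs with alpha3. It measured 8.64, 8.69 and 8.74 in treated and 8.63, 8.77 and 8.59 in control tumours, again with overlapping groups, and its difference was 0.02 with an interval from -0.15 to 0.20 (limma adjusted p = 0.940). The sign of this difference also turned with array weights and without BL-8040 replicate 3 or control replicate 3. CHRNA5, the accessory alpha5 subunit, measured 8.90, 9.03 and 8.84 against 8.95, 8.84 and 8.55, a difference of 0.14 (interval -0.10 to 0.39, limma adjusted p = 0.734). In all 3 genes of this cluster the lowest array was control replicate 3; without it the CHRNA5 difference was 0.03, and with any other array left out it ranged from 0.09 to 0.23, the lowest when BL-8040 replicate 2 and the highest when control replicate 1 was dropped.

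CHRNB2 encodes the beta2 subunit, found in neuronal nicotinic receptors of brain and, in part, ganglia. Its values were 7.52, 7.65 and 7.22 after BL-8040 and 7.79, 7.77 and 7.54 in the controls, with BL-8040 replicate 3 the lowest and BL-8040 replicate 2 above control replicate 3. The difference of -0.24 ± 0.12 (SE) did not pass (limma adjusted p = 0.654), and without BL-8040 replicate 3 it was -0.11. CHRNA7, which forms receptors from a single subunit type, was dim at percentile 29.4, with 4.65, 4.64 and 4.81 against 4.56, 4.72 and 5.01. Its difference was -0.06 (interval -0.33 to 0.20) and turned to 0.06 without control replicate 3, and it was -0.12 when BL-8040 replicate 3 was left out. Part of CHRNA7 is duplicated in the fusion gene CHRFAM7A, and a further probe set annotated to CHRFAM7A, CHRNA7 and ULK4P1 differed by 0.01 (0.05 with BL-8040 replicate 3 left out), so the reading of CHRNA7 is uncertain.

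The 5 muscle-type subunit genes CHRNA1, CHRNB1, CHRND, CHRNE and CHRNG, which build the receptor of the neuromuscular junction, lay between percentiles 24.3 and 46.5. All 5 were lower, by -0.03 to -0.22. The only one at an unadjusted p under 0.05 was CHRNB1, the beta1 subunit gene, with 5.72, 5.62 and 5.53 after BL-8040 and 5.75, 5.98 and 5.79 in controls. BL-8040 replicate 1 lay just below control replicate 1, and the difference was -0.22 ± 0.09 (SE; limma adjusted p = 0.644; exact permutation p = 0.1, the smallest that 3 against 3 arrays can give). Without control replicate 2 the CHRNB1 difference was -0.15. The skeletal muscle markers did not share a direction, with 4 of 12 higher and 8 lower, and their mean lay between 5.11 and 5.17 in every array. The other neuronal or hair-cell nicotinic genes, CHRNA2, CHRNA6, CHRNA9, CHRNA10 and CHRNB3, differed by -0.19 to 0.08, and none of these 5 had an unadjusted p under 0.05.

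Glutamate receptors fall into AMPA, kainate, NMDA and delta classes. The kainate genes held 3 of the 7 members without overlap: 3 of 5 lay wholly below the controls, beside 9.05% of all genes, and 2 of 5 were lower at an unadjusted p under 0.05, beside 5.08%. With so few genes these counts are a description. Their median difference was -0.10, or -0.06 without BL-8040 replicate 3. GRIK3, a principal kainate subunit, measured 4.89, 4.73 and 4.75 after BL-8040 and 5.01, 5.09 and 5.11 in controls. Its treated values were all lower, the difference was -0.28 ± 0.08 (SE) with an unadjusted limma p of 0.00525, the smallest of any member, and an adjusted p of 0.644. GRIK3 lay at signal percentile 32.4, and its difference stayed between -0.33 and -0.25 whichever array was left out.

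GRIK5, a high-affinity subunit that works only in mixed receptors, measured 5.06, 5.09 and 5.01 against 5.28, 5.30 and 5.18, also without overlap. Its difference was -0.20 ± 0.07 (SE; limma adjusted p = 0.644), between -0.23 and -0.17 with each array left out. GRIK4, the related high-affinity subunit gene, did not overlap either, but the difference was -0.08 at an unadjusted limma p of 0.277. GRIK2, the brightest glutamate receptor gene at percentile 74.6, encodes the most widely studied kainate subunit. It measured 7.44, 7.43 and 7.32 against 7.58, 7.42 and 7.48, with overlap, and differed by -0.10 (interval -0.27 to 0.08), or by -0.06 without BL-8040 replicate 3 and -0.05 without control replicate 1. GRIK1 went the other way, by 0.03, with BL-8040 replicate 3 its lowest array, and without that array the difference was 0.30. Of the 5 kainate genes, 4 were thus lower, with sizes from -0.28 to -0.08.

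GRID1 encodes a delta receptor, which works as a synaptic organiser that binds cerebellins rather than as a classical glutamate channel. It measured 6.51, 6.51 and 6.16 after BL-8040 and 6.73, 6.69 and 6.66 in controls. All treated values were lower, and the control values spread by less than the treated ones (SD 0.04 against 0.20). The difference was -0.30 ± 0.10 (SE), with a limma adjusted p of 0.644 and an exact permutation p of 0.1, the smallest possible. Without BL-8040 replicate 3 it was -0.18. The wider list of glutamate receptor auxiliary subunits, which holds the cerebellins among other genes, had 17 of 22 genes lower, beside 58.5% of all named genes. Its median difference was -0.12, or -0.08 without BL-8040 replicate 3, and the cerebellins alone are not given here.

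Of the 4 AMPA genes, which encode the fast excitatory receptor, 3 were higher and none had an unadjusted p under 0.05. GRIA3 measured 3.09, 2.80 and 3.68 after BL-8040 and 2.92, 2.64 and 2.97 in controls, at percentile 7.95 of signal. Its difference of 0.35 came mostly from BL-8040 replicate 3 and was 0.10 without it and 0.54 without BL-8040 replicate 2, and GRIA1, GRIA2 and GRIA4 differed by -0.07 to 0.15. The 7 NMDA genes, whose receptor needs glutamate together with glycine or D-serine, ranged from -0.14 to 0.14 with a median of -0.05, and 0 of 7 had an unadjusted p under 0.05 or groups apart.

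HTR3A encodes the subunit that every functional 5-HT3 serotonin channel needs. It measured 6.02, 5.96 and 5.38 after BL-8040 and 6.51, 6.55 and 5.94 in controls, so that BL-8040 replicates 1 and 2 lay above control replicate 3 and the groups overlapped. The difference of -0.55 ± 0.20 (SE), 0.684 times the control level, was the most negative of the members, at an unadjusted limma p of 0.0239 (adjusted p = 0.644; exact permutation p = 0.3). Without BL-8040 replicate 3 it was -0.34, and without control replicate 3 it was -0.74. HTR3B, which forms mixed channels with HTR3A, measured 4.98, 5.07 and 5.19 against 5.37, 5.29 and 5.13 and differed by -0.19 (limma adjusted p = 0.649). HTR3C, HTR3D and HTR3E lay at or below percentile 19.2 and differed by -0.11 to 0.11.

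P2X receptors are cation channels opened by extracellular ATP. P2RX7, known from immune cells and also from neuroblastoma, measured 6.47, 6.26 and 5.73 against 6.18, 6.15 and 6.50. BL-8040 replicate 3 was the lowest and BL-8040 replicate 1 nearly the highest array, and the difference of -0.12 turned to 0.09 without BL-8040 replicate 3. Dropping BL-8040 replicate 1 instead gave -0.28, and dropping control replicate 3 gave -0.01. P2RX4 measured 6.16, 6.08 and 5.97 against 6.18, 6.25 and 6.08 and differed by -0.10 (interval -0.28 to 0.09), or by -0.05 without BL-8040 replicate 3 and -0.06 without control replicate 2. P2RX3, a channel of sensory neurons, was the third of the largest positive differences: it measured 4.13, 4.60 and 4.73 against 4.24, 4.21 and 4.23, with BL-8040 replicate 1 below all controls, and differed by 0.26 (limma adjusted p = 0.660). The P2RX3 difference was 0.14 when BL-8040 replicate 3 was dropped, and 0.44 when replicate 1 of that group was. P2RX1, P2RX2 and P2RX6 differed by -0.07 to 0.04. The probe set shared by P2RX5 and its read-through transcript P2RX5-TAX1BP3 measured 7.58, 7.60 and 6.84 against 7.61, 7.45 and 7.48 and again had its lowest value in BL-8040 replicate 3. It differed by -0.17, which turned to 0.08 without that array, and was not part of the test.

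Among the chloride channels, the GABA-A gene GABRG3, which encodes a gamma subunit, had the largest difference of any member. It measured 6.50, 6.51 and 7.67 after BL-8040 and 6.30, 6.55 and 5.87 in controls, with BL-8040 replicate 3 far above and control replicate 3 far below the rest. The difference was 0.65 ± 0.30 (SE), 1.57-fold, with an interval from -0.03 to 1.33 and a limma adjusted p of 0.646 (exact permutation p = 0.3). Without BL-8040 replicate 3 it was 0.27, and without control replicate 3 it was 0.47. GABRD, the delta subunit of receptors outside synapses, measured 5.95, 5.98 and 6.01 against 6.04, 6.03 and 6.23; the groups did not overlap, but they differed by -0.12 (limma adjusted p = 0.693), or by -0.06 without control replicate 3. The 5 alpha, 2 beta and 3 rho subunit genes lay at or below percentile 36.2 and differed by -0.20 to 0.03, with 0 at an unadjusted p under 0.05, and GABRE, GABRG1 and GABRQ by -0.13 to 0.09. A further probe set annotated to GABRE and MIR224 measured 2.08, 2.09 and 2.03 against 2.19, 2.20 and 2.25, without overlap. It differed by -0.15 (-0.13 without BL-8040 replicate 3), opposite in sign to the 0.09 of GABRE, and was not part of the test. A GABA-A receptor at the synapse is usually built of alpha, beta and gamma subunits.

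The 5 glycine receptor genes were the dimmest family, at percentiles 2.67 to 16.9, and all 5 were lower, by -0.11 to -0.29. GLRA4, annotated in humans as a likely pseudogene, measured 3.54, 3.63 and 3.70 against 3.88, 4.07 and 3.81. All treated values were below all controls, and the difference was -0.29 ± 0.09 (SE; limma adjusted p = 0.644; exact permutation p = 0.1, the smallest possible). GLRA1, the adult spinal cord subunit, measured 3.48, 3.17 and 3.56 against 3.17, 3.84 and 3.53 with full overlap, and its difference of -0.11 turned to 0.05 without control replicate 2. It was -0.28 when control replicate 1 was dropped, -0.19 when BL-8040 replicate 3 was, and 0.0046 when replicate 2 of that group was.

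**Figure D3:**
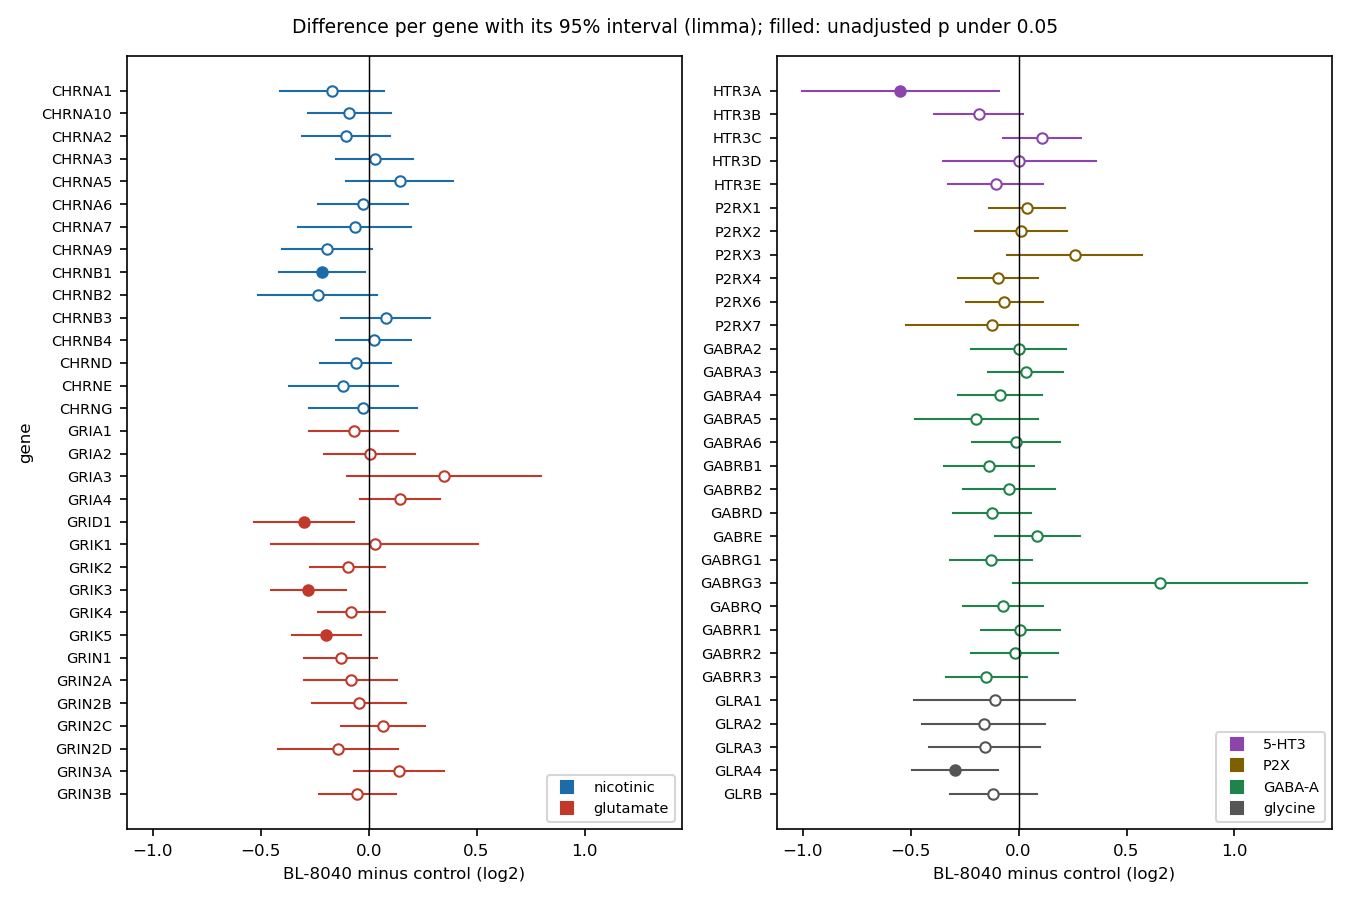
Difference between BL-8040 and control (log2, horizontal axis) with its 95% interval from limma for each of the 63 receptor genes, coloured by family, with filled points at an unadjusted p under 0.05. The 6 filled points lie left of 0, and the widest intervals belong to GABRG3, HTR3A, GRIA3 and GRIK1.

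The precision was enough to bound the measured difference of most members. The 95% interval ran 0.205 log2 units either way from the difference for the median member and 0.197 for the median of all named genes. The interval lay wholly within a 1.5-fold change in either direction for 60 of 63 members (95.2%, beside 96.5% of all genes). The exceptions were GABRG3, HTR3A and GRIA3. Of the 11 brighter members 9 were bounded in this way (81.8%, beside 97.3% of all genes at that signal). Of the 52 dim members 51 were (98.1%, beside 95.8%), and dim signal limits what these intervals say of the transcripts. A difference of at least 1.2-fold (0.263 log2) was measured in 6 members (2 higher and 4 lower), or 9.52%, beside 4.71% of all genes. At least 1.5-fold was measured in 1 member, GABRG3, and in 38 of all 18417 named genes. Without BL-8040 replicate 3, GRIA3 (0.10), GRID1 (-0.18) and GRIK3 (-0.261) fell short of 1.2-fold, while GABRG3 (0.265), HTR3A and GLRA4 did not. GRIK1 (0.30) and GABRA5 (-0.28) then passed it. The number of arrays, 3 in each group, limits this precision.

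BL-8040 replicate 3 held the lowest value of 19 members (30.2%), close to its share among all named genes (30.5%), and the highest value of 13 (20.6%, beside 16.3%). Among the 11 brighter members it was the lowest array in 6 (54.5%), beside 38.3% of all named genes at that signal. Without it, 46 members were lower and 17 higher, 9 members changed sign, and the median difference went from -0.07 to -0.06. In the same array the 11 measured hypoxia targets had a median deviation of -0.69, against -0.14 and 0.17 in the other treated arrays and 0.04 to 0.45 in controls. All 11 were lower after BL-8040, beside 58.5% of all named genes, with a median difference of -0.35, or -0.20 without this array. The 10 sympathetic neuroblast markers had their lowest median there too, -0.21, against -0.04 to 0.27 in the other arrays, and all 10 were lower after BL-8040, by a median of -0.23, or -0.13 without this array. The part of either list in the differences of HTR3A, GRID1, CHRNB2 or GABRG3 was not tested, and fewer cells of a type and less RNA per cell cannot be told apart in whole tumours.

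**Figure D4:**
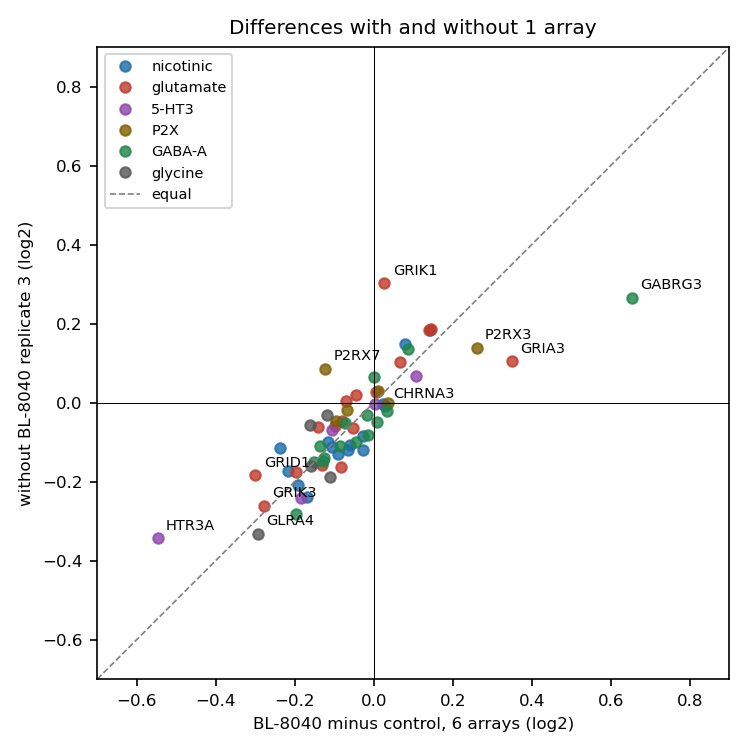
Difference between BL-8040 and control (log2) over all 6 arrays on the horizontal axis and without BL-8040 replicate 3 on the vertical axis, 1 point per receptor gene, coloured by family, with a dashed line where both are equal. GABRG3, GRIA3 and HTR3A move toward 0 without this array, GRIK1 moves from 0.03 to 0.30, and GRIK3 and GLRA4 stay near the line.

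Genes that supply the transmitters or hold the receptors in place gave 0 calls at an adjusted p under 0.05 in limma. Of the 7 acetylcholine supply genes, 6 were lower; SLC18A3, the vesicular acetylcholine transporter, differed by -0.25 (limma adjusted p = 0.644) and BCHE, a cholinesterase, by 0.25. Of the 9 measured GABA and glycine supply genes, 7 were lower, and GAD2, an enzyme that makes GABA, had the smallest p with -0.34 (limma adjusted p = 0.644) at percentile 18.1, beside -0.13 for the GABA transporter SLC6A11. In the glutamate supply list 9 of 10 were lower and 3 had an unadjusted limma p under 0.05, beside 58.5% and 7.72% of all named genes; the vesicular transporters SLC17A7 and SLC17A8 each differed by -0.22.

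In the serotonin list 4 of 7 were lower, with SLC18A1, a vesicular monoamine transporter, at -0.52 (-0.23 without BL-8040 replicate 3) and MAOA, the monoamine oxidase A gene, at -0.22. All 8 genes of ATP release and breakdown were lower, by -0.01 to -0.30; the vesicular nucleotide transporter SLC17A9 differed by -0.15 and the ectonucleotidase ENTPD8 by -0.22. Nicotinic receptor chaperones and anchors had 11 of 16 lower and 0 at an unadjusted limma p under 0.05, beside 7.72% of all named genes. RAPSN, which clusters the muscle receptor, differed by -0.22 and LYPD6B by -0.19. Anchors of inhibitory receptors were split into 7 higher and 9 lower with a median of -0.01; SHISA7 differed by -0.17 and LHFPL4 by -0.15.

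Glutamate receptor auxiliary subunits gave OLFM2 at -0.31 (limma adjusted p = 0.644; -0.15 without BL-8040 replicate 3) and GSG1L at -0.17. Postsynaptic density scaffolds had 15 of 23 lower, with GRIP1, an AMPA receptor anchor, at -0.23 and SHANK1 at -0.18. None of these lists held a gene that was higher at an unadjusted limma p under 0.05, where the share of all named genes was only 2.64%. Whether the signal of fibroblast, endothelial and myeloid markers came from mouse cells or from the human tumour cells was not tested. Their median differences were 0.04 for fibroblast, -0.07 for endothelial and 0.04 for myeloid markers. Without BL-8040 replicate 3 they were -0.02, -0.08 and -0.01, so that the fibroblast and myeloid medians turned sign.

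**Figure D5:**
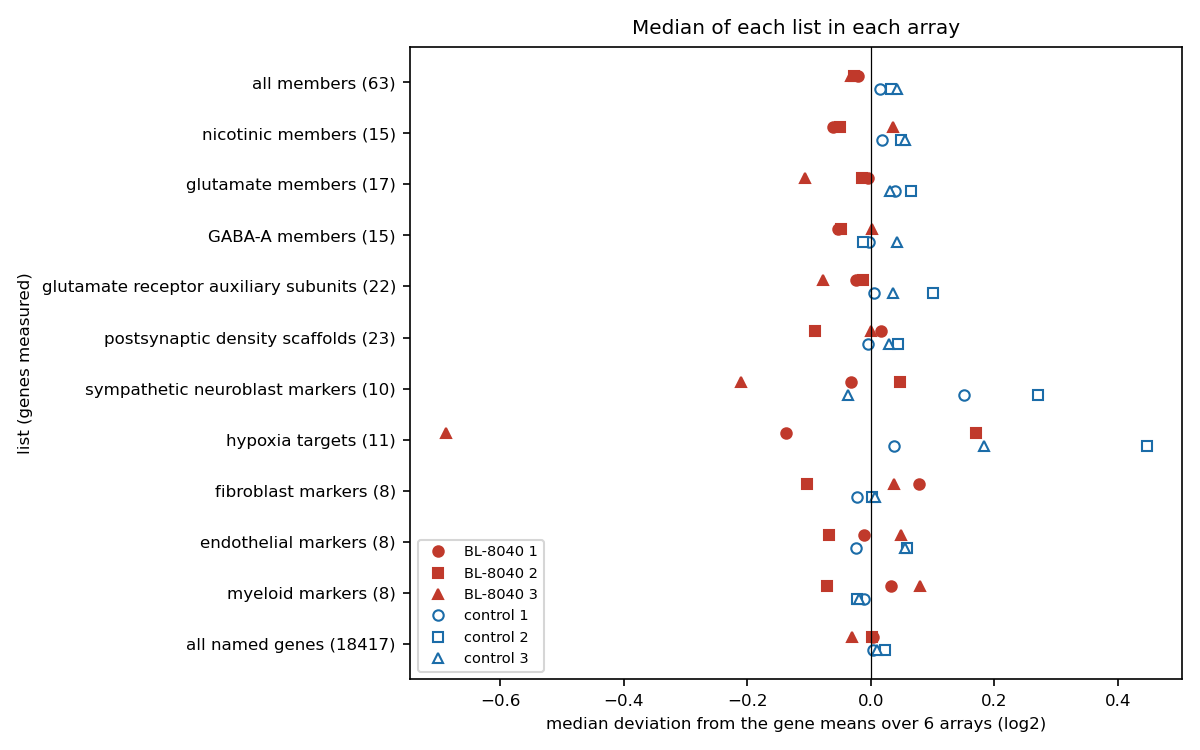
Median deviation from the gene means over the 6 arrays (log2, horizontal axis) of each list in each array, with the number of measured genes in brackets, BL-8040 in filled red and control in open blue symbols. The 63 receptor genes together stay between -0.03 and 0.04 in every array, while the hypoxia targets range from -0.69 to 0.45.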

How the data were processed

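RNA from 6 tumours (200 ng each, extracted with Trizol, per the labels' protocols) was hybridised to human arrays. The authors deposited 1 table of log2 values (1.08 to 13.2). The submitters' processing notes name Partek 6.6; the sources used here do not give the background correction, normalization or summarization. Of 33297 probe sets, 19460 had 1 symbol in the platform annotation, 1754 several and 12083 none; the brightest per gene was kept (18417 genes). Groups came from the sample titles. The groups were compared over all genes in R 4.3.3 with limma 3.58.1 (lmFit, eBayes; two-sided), with Benjamini-Hochberg adjustment and no filter on dim genes. The design text names 3 mice per group. The test was also run on simulated arrays with independent noise. These had no outlying array such as BL-8040 replicate 3, and no conclusion is drawn from them here. Alternatives were a filter on dim genes, the mean of probe sets, other normalization or moderation, array weights, a replicate block, a stricter threshold and each array left out in turn.

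The members and lists were chosen with earlier results of these data known. Values per array are given for the ganglionic subunits, members at an unadjusted p under 0.05, the 3 largest differences in each direction and the 2 brightest of each family; of other lists, the 2 genes with the smallest p. A difference is BL-8040 minus control in log2 units. The human sequences of these genes were not used here.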

Additional observations from a re-analysis of the deposited data

How the results depend on the processing

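No member, and no gene, passed an adjusted limma p of 0.05 under any of the 13 alternatives run. The count of members at an unadjusted p under 0.05 (6, all lower) was 2, both lower, with a fit of only the genes at or above the median signal. That fit held 11 members, and 7.75% of its genes had such a p. At a threshold of 0.01 the count was 2. One higher member was counted with median centring (1), array weights (1) and the replicate block (1). With 1 array left out the count ranged from 4 to 10, with 0 to 2 higher and 3 to 8 lower. The share of all genes at this p then ranged from 4.91% to 9.98%. Members with non-overlapping groups (7, all lower) were 1, lower, among genes at or above the median signal (9.09%, beside 14.7% of all such genes). After quantile normalization they were 12, all lower, or 19% of members, where all genes went from 14% to 15%. With 1 array left out they ranged from 13 to 17 (20.6% to 27%), with 1 to 4 higher and 10 to 14 lower. All genes then ranged from 21.5% to 29.5%, since fewer arrays overlap less often. The median difference of the members was -0.10 among genes at or above the median signal and ranged from -0.089 (without control replicate 1) to -0.040 (without control replicate 3) with 1 array left out.

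Of the 20 genes with values per array, 5 changed sign under some alternative. CHRNA3 differed by -0.0034 after quantile normalization and -0.015 with array weights, and by -0.017 to 0.072 with 1 array left out. CHRNB4 differed by -0.011 with array weights and -0.012 to 0.074 with 1 array left out. P2RX7 differed by 0.040 with array weights and -0.28 to 0.086 with 1 array left out. GLRA1 ranged from -0.28 to 0.051 and CHRNA7 from -0.17 to 0.059 with 1 array left out. Why these signs turned was not tested. Deviations of same-numbered arrays correlated at -0.04, 0.02 and 0.08, and 2 of the 6 arrays correlated best with their own number. These values over all genes cannot decide whether replicate numbers pair the tumours. With the replicate block 9 members had an unadjusted p under 0.05, 8 lower and 1 higher, beside 8.08% of all genes. After adjustment 0 passed. With this block the unadjusted limma p of HTR3A went from 0.0239 to 0.000165 (adjusted p = 0.545), and that of HTR3B from 0.0715 to 0.112. Dim signal limits what can be said of the 52 members below the median.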
